A study of Mus musculus with 40 samples.

Results

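The 10 genes described here are mouse germline genes of the piRNA pathway and of meiosis: *Morc1*, *Piwil2*, *Tdrd1*, *Asz1*, *Mael*, *Tex19.1*, *Hormad1*, *Dazl*, *Ddx4* and *Sycp3*. They form a list of names, drawn up with earlier results of these data known, and all 10 were found in the deposited gene table of 56748 genes and were among the 23399 genes expressed highly enough to be tested. Their RNA was followed by total RNA sequencing in 40 libraries of XY mouse embryonic stem (ES) cells. Each genotype was measured as naive mES cells, kept in medium with 2 kinase inhibitors and LIF (2i + LIF), and as epiblast-like cells (EpiLCs), made from them with FGF and Activin A. The genotypes were wild type (WT, 8 libraries in each state), LBRKO, TKO and QKO (4 libraries each in each state). LBRKO cells carry frameshift mutations in *Lbr*, which encodes the lamin B receptor, an inner nuclear membrane protein that holds heterochromatin at the nuclear periphery. TKO cells lack the lamins, encoded by *Lmna*, *Lmnb1* and *Lmnb2*, and QKO cells were made from TKO cells by mutating *Lbr* as well. The study's genotyping gives the QKO clone its own *Lbr* alleles, a frameshift deletion and an in-frame deletion, so LBRKO against WT (with lamins) and QKO against TKO (without them) do not compare the same *Lbr* mutations. QKO is 1 clone derived from the TKO line, several LBRKO clones exist and the labels do not say which one a library came from, and each library came from its own well of cells. The study's karyotypes found an extra chromosome 8 in TKO cells and, in part of the WT cells, extra chromosomes 6 and 8. Part of the cells of both lines had lost the Y chromosome. The p-values below therefore measure the spread between wells, not between independently derived lines. In bulk samples such as these, fewer cells that express a gene and less RNA per cell cannot be told apart.

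In germ cells, piRNAs are small RNAs carried by PIWI proteins, which use them to recognise transposon transcripts and to direct DNA methylation to transposon copies. PIWIL2 (MILI) is one of these PIWI proteins. TDRD1, a Tudor-domain scaffold, ASZ1 (GASZ), a mitochondrial anchor, MAEL and the RNA helicase DDX4 (VASA) sit with it in the cytoplasmic granules where piRNAs are made, and MORC1 is a nuclear ATPase needed for transposon silencing in male germ cells. TEX19.1 protects germ cells and the placenta from transposons, HORMAD1 and SYCP3 are components of the meiotic chromosome axis, and DAZL is an RNA-binding protein needed for germ cell development. The promoters of many such genes are silenced by DNA methylation and by the E2F6- and MGA-containing PRC1.6 complex at about the time an embryo implants, the transition that the passage from naive mES cells to EpiLCs models. In naive mES cells, whose DNA is poorly methylated, part of these genes is transcribed outside the germline.

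The genes are spread over 10 chromosomes. *Morc1* (ENSMUSG00000022652.8) spans chr16:48251600-48451263 on the + strand in GRCm39, with 28 merged exons. *Piwil2* (ENSMUSG00000033644.6) spans chr14:70609926-70666832 on the - strand, with 24. *Tdrd1* (ENSMUSG00000025081.14) spans chr19:56814641-56858444 on the + strand, with 27. *Asz1* (ENSMUSG00000010796.12) spans chr6:18050963-18109060 on the - strand, with 12, and *Mael* (ENSMUSG00000040629.9) spans chr1:166028770-166066316 on the - strand, also with 12. *Tex19.1* (ENSMUSG00000039329.9) is the shortest gene, with 2 exons in chr11:121036969-121039145 on the + strand. *Hormad1* (ENSMUSG00000028109.15) spans chr3:95466988-95494982 on the + strand, with 16 merged exons, and *Sycp3* (ENSMUSG00000020059.10) spans chr10:88295431-88309098 on the + strand, with 8. *Dazl* (ENSMUSG00000010592.10) spans chr17:50586423-50600664 on the - strand, with 12, and *Ddx4* (ENSMUSG00000021758.15) spans chr13:112734867-112789009 on the - strand, with 22. The exons of *Sycp3* overlap those of *Chpt1* on the opposite strand over 660 bases, so without the strand setting of the counting its values are uncertain.

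The promoters of the 5 genes that were higher in QKO than in WT EpiLCs are printed here because these members share that call, by which the windows were picked. Each runs 5′ to 3′ on the gene's strand from 250 bases before the start of the canonical transcript over the first 50 transcribed bases. The windows are chr16:48251350-48251649 (*Morc1*, + strand), chr14:70666516-70666815 (*Piwil2*, - strand), chr6:18109007-18109306 (*Asz1*, - strand), chr11:121036719-121037018 (*Tex19.1*, + strand) and chr3:95466689-95466988 (*Hormad1*, + strand), read from GRCm39 with GENCODE transcript starts. Capitals mark 2 motifs, searched on both strands: the E-box CACGTG, which MGA and its partner MAX bind, and the core of the E2F motif, GCGGGA, which E2F6 binds.
Morc1: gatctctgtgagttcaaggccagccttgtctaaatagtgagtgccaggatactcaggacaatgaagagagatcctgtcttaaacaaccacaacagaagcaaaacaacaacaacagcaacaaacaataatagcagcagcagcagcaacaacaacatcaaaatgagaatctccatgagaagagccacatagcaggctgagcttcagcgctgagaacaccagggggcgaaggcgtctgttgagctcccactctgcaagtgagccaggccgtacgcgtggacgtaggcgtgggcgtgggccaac
Piwil2: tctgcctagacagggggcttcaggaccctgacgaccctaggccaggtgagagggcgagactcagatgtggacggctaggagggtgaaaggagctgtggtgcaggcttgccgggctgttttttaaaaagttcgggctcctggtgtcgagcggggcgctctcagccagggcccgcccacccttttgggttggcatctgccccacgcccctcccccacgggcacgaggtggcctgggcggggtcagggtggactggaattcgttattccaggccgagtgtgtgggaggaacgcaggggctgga
Asz1: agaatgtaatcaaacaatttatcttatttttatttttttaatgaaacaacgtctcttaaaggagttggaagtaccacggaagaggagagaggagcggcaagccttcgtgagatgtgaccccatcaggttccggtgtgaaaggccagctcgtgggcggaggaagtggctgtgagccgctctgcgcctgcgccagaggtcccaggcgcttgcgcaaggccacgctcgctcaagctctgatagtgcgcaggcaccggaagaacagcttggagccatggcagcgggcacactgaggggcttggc
Tex19.1: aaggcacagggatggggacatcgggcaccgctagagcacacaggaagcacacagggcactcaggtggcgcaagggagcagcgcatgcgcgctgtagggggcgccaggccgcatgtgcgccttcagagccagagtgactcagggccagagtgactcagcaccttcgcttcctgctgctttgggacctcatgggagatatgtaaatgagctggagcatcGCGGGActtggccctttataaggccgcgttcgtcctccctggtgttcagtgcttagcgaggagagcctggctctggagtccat
Hormad1: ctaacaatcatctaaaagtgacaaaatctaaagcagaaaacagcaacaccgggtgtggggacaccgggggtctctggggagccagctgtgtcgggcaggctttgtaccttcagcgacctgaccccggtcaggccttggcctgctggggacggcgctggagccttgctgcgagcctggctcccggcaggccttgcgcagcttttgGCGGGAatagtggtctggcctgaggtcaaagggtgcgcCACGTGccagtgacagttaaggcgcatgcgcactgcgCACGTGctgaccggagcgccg

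Among these windows, that of *Hormad1* held 2 E-boxes and 1 E2F core and that of *Tex19.1* held 1 E2F core, while neither run of letters was found in those of *Morc1*, *Piwil2* and *Asz1*. Over all 10 genes, 4 promoters held the E-box (*Tdrd1*, *Mael*, *Hormad1* and *Sycp3*), beside 7.85% of the 21611 promoters of protein-coding genes read the same way. The E2F core was found in 5 (*Mael*, *Tex19.1*, *Hormad1*, *Ddx4* and *Sycp3*), beside 22.8% of all promoters, and both motifs in 3, beside 2.37%. The median number of CG dinucleotides was 17.5 for the 10 windows and 11 for all promoters, from 9 in *Morc1* to 26 in *Dazl*. A match is a description of the letters and not a binding site.

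Levels are given as CPM, counts per 1000000 reads (M) assigned to genes. The libraries held 22.6 M to 48.9 M such reads, so transcripts under 1 CPM rested on few reads in each library. B-type lamin transcripts matched the labels: mean *Lmnb1* was 514.3 CPM in WT mES cells and 515.6 in WT EpiLCs, and at most 13.8 in TKO and QKO cells of either state, and *Lmnb2* was called lower in the same groups. *Lmna* was called lower in TKO and QKO mES cells but not in EpiLCs, where it was low throughout, at 11.3 CPM in WT, 7.74 in TKO and 8.38 in QKO cells. *Lbr* RNA was not called lower in LBRKO or QKO cells (208.6 ± 64.3 CPM in LBRKO against 371.7 in WT mES cells), and a frameshift need not remove the RNA. The state labels matched their markers: 6 naive pluripotency genes summed to 4208 ± 262 CPM in WT mES cells and to 142 ± 29.6 in WT EpiLCs, and 5 epiblast-like genes to 173 ± 37.5 and 3527 ± 244 (SD, n = 8). The WT libraries stood apart in 2 sets that the labels do not name as batches. Replicates 1 to 4 held 25.4 M to 33.5 M counts and replicates 5 to 8 held 39.4 M to 48.9 M. The mutants split in depth likewise. LBRKO libraries held 39.7 M to 48.1 M, near WT replicates 5 to 8. TKO (22.6 M to 33.6 M) and QKO libraries (24.5 M to 33.0 M) were near WT replicates 1 to 4. Comparisons that join LBRKO with TKO or QKO libraries cannot tell a difference between such sets from one of genotype. Between the 2 WT sets, *Tex19.1* did not overlap in either state, nor did *Hormad1* in EpiLCs or *Dazl* in mES cells, and the main results on these genes are given below against each WT set as well. *Asz1* is also given relative to its own chromosome below, since the 1167 tested genes of chromosome 6 had a median log2 fold change of 0.38 in LBRKO mES cells and 0.37 in LBRKO EpiLCs against WT.

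In WT cells the passage from naive mES cells to EpiLCs moved 7 of the 10 genes by more than 2-fold, 5 up and 2 down. Across all 23399 genes tested, 31.1% changed by that rule (adjusted p under 0.05 and over 2-fold). The median log2 fold change was 1.13 over the 10 genes and 0.07 over all genes. The piRNA pathway genes *Tdrd1*, *Mael*, *Ddx4* and *Piwil2* and the axis gene *Sycp3* rose, and *Morc1* and *Dazl* fell. *Tdrd1* had the widest change: its 8 WT mES libraries ran from 0.0894 to 0.434 CPM (median 0.314) and the 8 WT EpiLC libraries from 19.9 to 23.65 (median 22.4), a 72.6-fold rise (log2 fold change 6.18 ± 0.14 SE, adjusted p = 1.51e-33). *Mael* rose 18.7-fold, from 0.883 to 1.51 CPM (median 1.26) in WT mES libraries to between 18.45 and 26.0 (median 23.6) in WT EpiLC libraries. For both genes the states lay far apart, with no library of one state near the other. *Ddx4* rose by 2.94 ± 0.11 on the log2 scale, from 3.95 to 8.20 CPM (median 5.25) to between 35.8 and 49.0 (median 40.8). *Sycp3* rose by 2.2 ± 0.20 and *Piwil2* by 1.81 ± 0.07, again without overlap between the states.

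*Morc1* went the other way. It lay between 158.9 and 191.9 CPM (median 176.8) in WT mES libraries and between 22.3 and 25.4 (median 24.9) in WT EpiLC libraries, and fell by 2.85 ± 0.05 on the log2 scale (adjusted p = 7.02e-37). *Dazl* fell by 1.17 ± 0.10 (adjusted p = 9.01e-14), but with a difference of -1.59 against WT replicates 1 to 4 alone and of -0.71, under 2-fold, with replicates 5 to 8 alone. *Hormad1* and *Tex19.1* were lower in EpiLCs by less than 2-fold, with log2 fold changes of -0.71 ± 0.09 and -0.62 ± 0.12. Both were past 2-fold with WT replicates 1 to 4 (-1.08 for each) and not with replicates 5 to 8 (-0.36 and -0.31). *Asz1* had the lowest levels of the 10 beside *Tdrd1* in mES cells, with 0.474 ± 0.236 CPM in mES cells and 0.660 ± 0.297 in EpiLCs (SD, n = 8; log2 fold change 0.45 ± 0.25, adjusted p = 0.106). Per kilobase of exon, *Tex19.1* was the most abundant of the 10 transcripts in WT mES cells (46.9 CPM per kilobase), followed by *Morc1* (27.2) and *Hormad1* (20.9). In WT EpiLCs the order on the same scale was *Tex19.1* (30.4), *Ddx4* (14.0), *Mael* (13.35) and *Hormad1* (12.8), with *Morc1* down at 3.77.

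**Figure D1:**
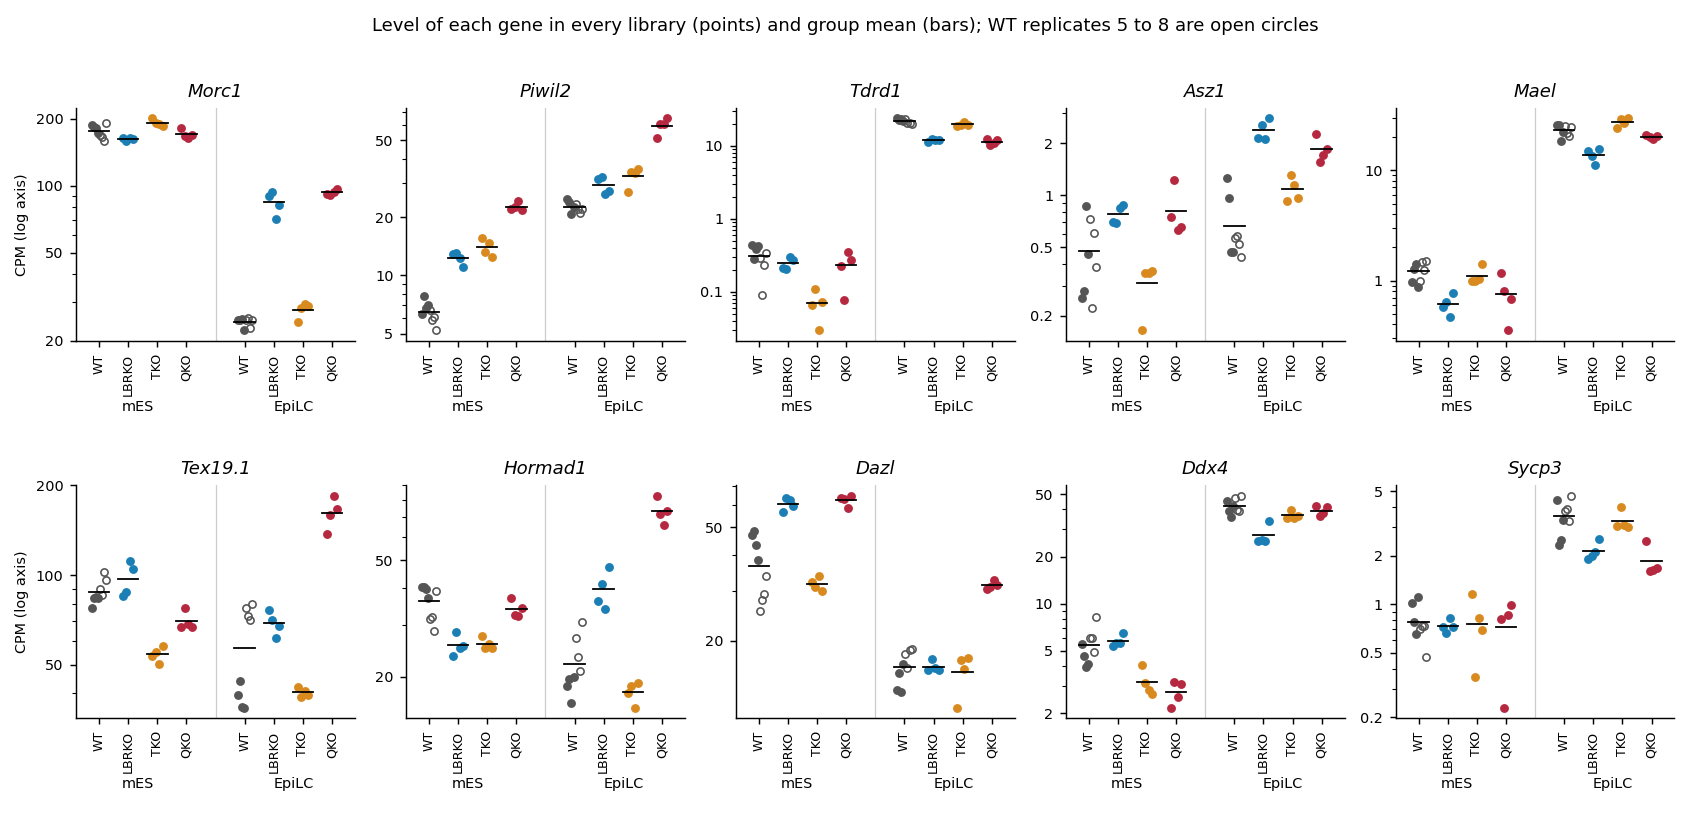
Level of each of the 10 genes in all 40 libraries, in CPM on a log axis, by genotype and state. Points are libraries (open circles are WT replicates 5 to 8) and bars are group means. *Morc1* is the gene with the widest gap between WT EpiLCs (22.3 to 25.4 CPM) and QKO EpiLCs (90.3 to 97.0 CPM), while *Tdrd1* runs lower in LBRKO and QKO EpiLCs than in WT EpiLCs.

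Against WT, the mutants differed most in the QKO EpiLCs. There *Morc1*, *Hormad1*, *Tex19.1*, *Asz1* and *Piwil2* rose, 5 of the 10 genes, and none was called lower. Among all genes, 21.2% were called between QKO and WT EpiLCs. The median log2 fold change was 1.17 over the 10 genes and -0.01 over all genes. The study named *Morc1* and *Piwil2* as higher in these same QKO libraries, so their direction here is not independent evidence. LBRKO EpiLCs had 2 of the 10 higher, *Morc1* and *Asz1* (5.67% of all genes called; medians 0.13 and 0.00). In TKO EpiLCs edgeR called 0 of the 10 (2.92% of all genes; medians -0.08 and -0.04). At an unadjusted p under 0.05, 6 of them differed between TKO and WT EpiLCs, 3 had an adjusted p under 0.05 at less than 2-fold, and DESeq2 also called 0.

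In naive mES cells fewer of the 10 genes were called than in EpiLCs for QKO and LBRKO, but more for TKO. QKO mES cells had 1 called, *Piwil2*, higher (17.2% of all genes called; medians -0.08 and 0.01). TKO mES cells had *Piwil2* higher and *Tdrd1* lower (6.45% of all genes; medians -0.34 and -0.01). LBRKO mES cells had *Mael* lower (6.31% of all genes; medians 0.01 and 0.02). Of the naive counts, 1 of 10 in LBRKO cells was near the share of all genes, 1 of 10 in QKO cells was below it and 2 of 10 in TKO cells was above it.

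**Figure D2:**
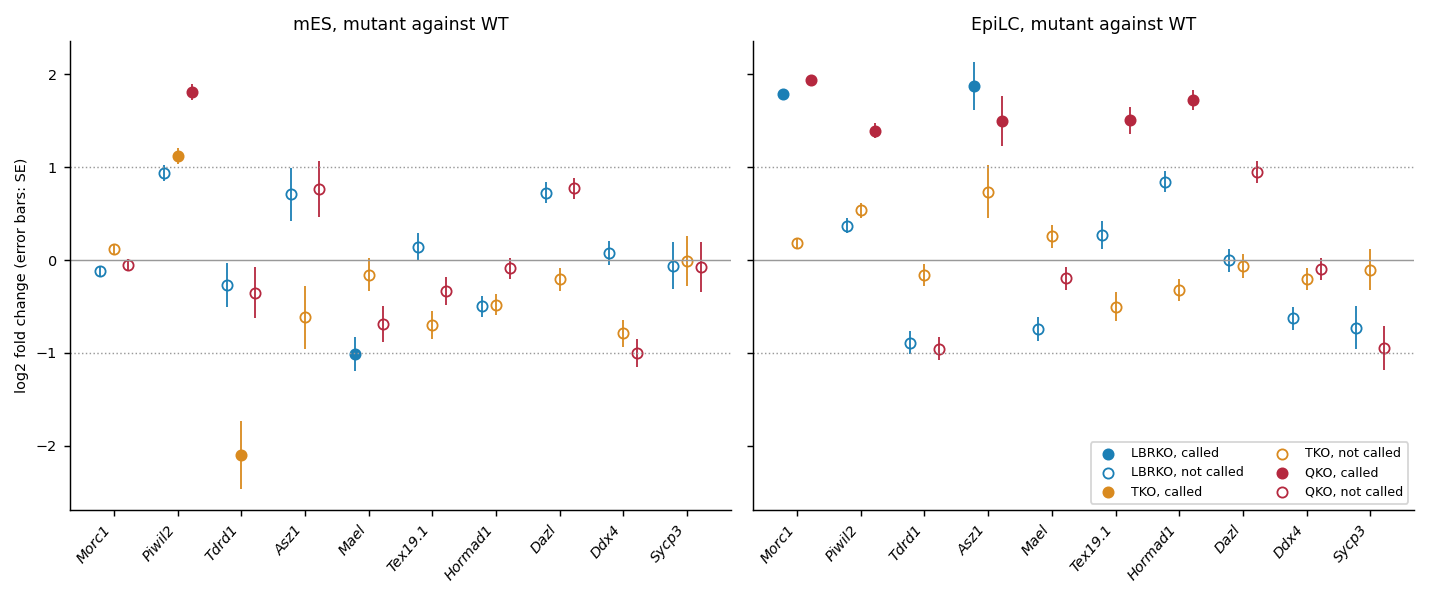
Log2 fold change (± SE) of the 10 genes in LBRKO, TKO and QKO cells against WT, in mES cells and in EpiLCs; filled points passed adjusted p under 0.05 and 2-fold. In EpiLCs the QKO points of *Morc1*, *Hormad1*, *Tex19.1*, *Asz1* and *Piwil2* are filled and lie between 1.39 and 1.93, and no TKO point is filled.

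*Morc1*, the gene for the nuclear silencing ATPase, was higher wherever LBR was mutated in EpiLCs. LBRKO EpiLC libraries had 90.2, 93.8, 70.8 and 81.5 CPM and QKO EpiLC libraries 91.9, 90.3, 93.6 and 97.0, against 22.3 to 25.4 in the 8 WT EpiLC libraries. TKO EpiLC libraries had 24.4, 28.1, 29.2 and 28.9. No LBRKO or QKO library came near those of WT or TKO EpiLCs, and the LBRKO and QKO libraries overlapped each other. *Morc1* rose 3.45-fold in LBRKO EpiLCs (log2 fold change 1.79 ± 0.06, adjusted p = 5.36e-26) and 3.82-fold in QKO EpiLCs (1.93 ± 0.06, adjusted p = 4.69e-28). In TKO EpiLCs the log2 fold change was 0.18 ± 0.06 (adjusted p = 0.0353), under 2-fold. QKO against TKO EpiLCs gave 1.75 ± 0.07 (adjusted p = 1.10e-22), a comparison that used neither WT nor LBRKO libraries for its means. LBRKO replicates 1 and 2 and replicates 3 and 4 gave 1.92 and 1.64 when fitted apart.

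In naive mES cells *Morc1* was not called in any mutant, and each mutant's libraries overlapped those of WT. Group means ran from 161.9 ± 1.99 CPM in LBRKO (n = 4) and 170.3 ± 8.10 in QKO (n = 4) through 176.4 ± 11.5 in WT (n = 8) to 191.6 ± 6.54 in TKO cells (n = 4). The TKO libraries (185.2 to 200.7 CPM) lay above those of QKO (163.6 to 182.0) and LBRKO cells (159.1 to 163.3), with a log2 fold change of -0.17 ± 0.07 in QKO against TKO cells (adjusted p = 0.0633). The loss of *Morc1* RNA on passage was therefore unequal. The ratio of mES to EpiLC means was 7.23 in WT and 6.93 in TKO cells, but 1.93 in LBRKO and 1.83 in QKO cells. Tested as an interaction, the passage of LBRKO cells differed from that of WT cells by 1.91 ± 0.08 on the log2 scale (adjusted p = 9.44e-21) and that of QKO cells by 1.98 ± 0.08 (adjusted p = 4.89e-22).

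Called differences in passage numbered 3 of the 10 genes for LBRKO (6.0% of all genes called, medians -0.22 and -0.02). They numbered 2 for TKO (3.03%, medians 0.18 and -0.01) and 3 for QKO (12.6%, medians 0.61 and -0.03). In all of them the ratio of EpiLC to mES level was higher than in WT. For LBRKO these were *Morc1*, *Hormad1* and *Asz1*, for TKO *Tdrd1* and *Asz1*, and for QKO *Morc1*, *Tex19.1* and *Hormad1*. Mean *Tdrd1* was not higher in TKO than in WT EpiLCs (19.6 against 21.96 CPM), but was lower in TKO than in WT mES cells (0.0689 against 0.309). All 3 sets of comparisons share the WT libraries.

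**Figure D3:**
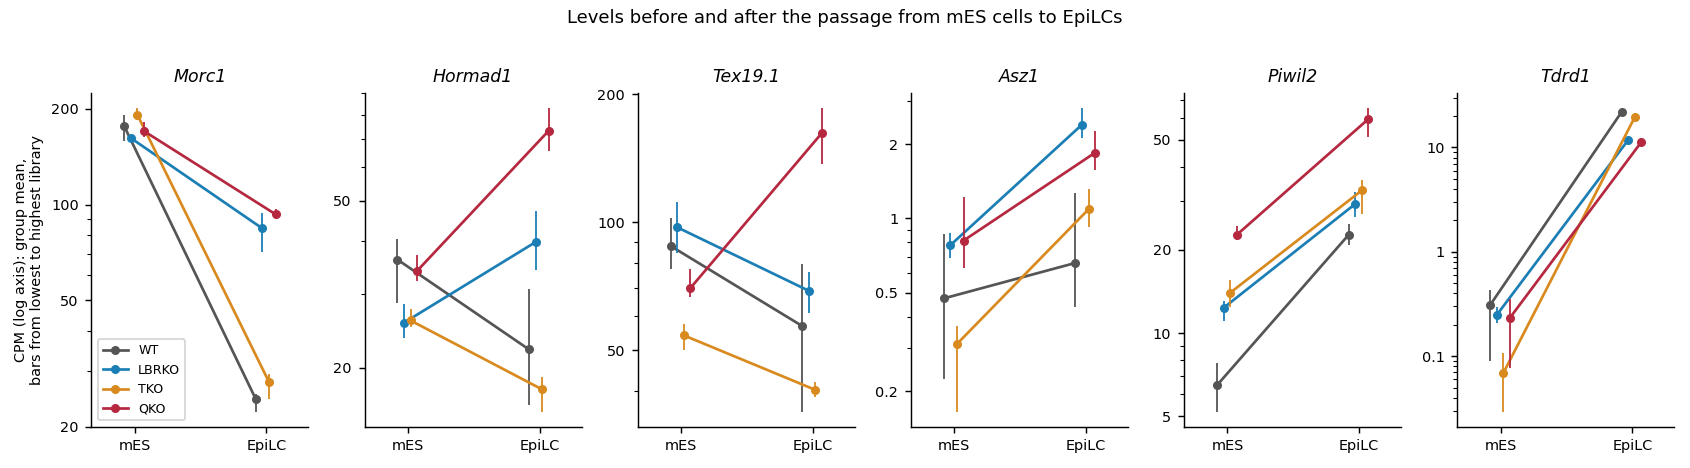
Group means of 6 genes in mES cells and EpiLCs, in CPM on a log axis, joined by genotype; bars run from the lowest to the highest library. The *Morc1* line falls 7.23-fold in WT cells and 1.83-fold in QKO cells, and the *Hormad1* and *Tex19.1* lines of QKO cells rise where those of WT cells fall.

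*Piwil2*, which encodes the PIWI protein MILI, was the only one of the 10 genes with a higher mean than WT in all 3 mutants in both states. In mES cells the WT libraries ran from 5.19 to 7.79 CPM (median 6.47). LBRKO libraries had 12.9, 13.1, 12.3 and 11.0 CPM, TKO libraries 15.6, 13.2, 14.7 and 12.45, and QKO libraries 22.02, 22.5, 24.3 and 21.8. None of the mutant libraries overlapped WT, and QKO libraries lay above those of LBRKO and TKO cells. *Piwil2* rose 2.17-fold in TKO (log2 fold change 1.12 ± 0.09, adjusted p = 1.32e-13) and 3.51-fold in QKO mES cells (1.81 ± 0.08, adjusted p = 2.97e-21). In LBRKO mES cells the difference was 1.91-fold (0.94 ± 0.09, adjusted p = 1.76e-11), just under the 2-fold limit, and with WT replicates 5 to 8 alone it was 1.05 and called.

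In EpiLCs, where the WT level of *Piwil2* was itself higher (20.75 to 24.9 CPM, median 22.5), QKO libraries had 51.3, 61.2, 60.5 and 65.05 CPM. TKO libraries had 27.0, 34.5, 34.0 and 35.8, and LBRKO libraries 31.5, 32.3, 26.3 and 27.2. All mutant libraries lay above all WT EpiLC libraries, and QKO above the rest. *Piwil2* rose 2.63-fold in QKO EpiLCs (log2 fold change 1.39 ± 0.08, adjusted p = 1.97e-18), while the TKO and LBRKO differences were 0.54 ± 0.08 (adjusted p = 4.87e-06) and 0.37 ± 0.08 (adjusted p = 0.000493), under 2-fold. The QKO value exceeded the sum of the LBRKO and TKO values by 0.49 ± 0.13 on the log2 scale (adjusted p = 0.00338), also under 2-fold.

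*Tdrd1* and *Mael*, which rose most on passage, were not among the genes that were higher in QKO EpiLCs. *Tdrd1* lay between 19.9 and 23.65 CPM in WT EpiLC libraries, at 18.5, 19.3, 21.2 and 19.5 in TKO, at 11.2, 12.2, 12.1 and 11.9 in LBRKO and at 12.2, 10.3, 10.9 and 11.9 in QKO EpiLC libraries. The LBRKO and QKO libraries thus lay apart from, and below, those of WT and TKO. The LBRKO level was 1.85-fold lower (log2 fold change -0.89 ± 0.12, adjusted p = 2.31e-07) and the QKO level 1.94-fold lower (-0.95 ± 0.12, adjusted p = 1.48e-08), both just short of 2-fold. With WT replicates 1 to 4 alone the QKO difference was called.

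In naive mES cells *Tdrd1* rested on few reads. TKO libraries had 0.0660, 0.107, 0.0295 and 0.0730 CPM, a sum of 8 reads against 87 in the 8 WT libraries, and the ratio of the depth-scaled counts was 0.226 (95% exact interval 0.0945 to 0.465, counting error only). The test called it lower (log2 fold change -2.10 ± 0.36, adjusted p = 1.90e-05), although TKO and WT libraries overlapped. The TKO passage of *Tdrd1* differed from that of WT by 1.94 ± 0.39 (adjusted p = 0.000528) and rests on the same 8 reads. *Tdrd1* was also called higher in QKO than in TKO mES cells (1.75 ± 0.44, adjusted p = 0.00677), with overlapping libraries. Without QKO mES replicate 3 that call was lost (1.505).

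*Mael* was at 13.8 ± 1.89 CPM in LBRKO EpiLCs (SD, n = 4) against 23.1 ± 2.76 in WT EpiLCs (SD, n = 8), a difference of -0.74 ± 0.13 (adjusted p = 1.20e-05) that stayed under 2-fold, and at 20.2 ± 0.742 in QKO EpiLCs. In LBRKO mES cells *Mael* had 0.575, 0.643, 0.467 and 0.776 CPM, all below the lowest WT mES library (0.883). It fell 2.02-fold (log2 fold change -1.01 ± 0.18, adjusted p = 3.96e-05), on the edge of the 2-fold limit. Leaving out WT mES replicate 3, 6 or 8 moved it to -0.98, -0.97 or -0.96, and leaving out LBRKO mES replicate 3 to -0.92, each of which lost the call.

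*Asz1*, the gene of the mitochondrial anchor, was a low transcript that was higher in LBRKO and QKO EpiLCs. The 8 WT EpiLC libraries ran from 0.438 to 1.26 CPM (median 0.544). LBRKO EpiLC libraries had 2.13, 2.55, 2.11 and 2.79 CPM, QKO EpiLC libraries 2.27, 1.57, 1.70 and 1.85, and TKO EpiLC libraries 0.927, 1.31, 1.15 and 0.969. The LBRKO and QKO libraries lay above every WT EpiLC library, and TKO libraries overlapped WT. *Asz1* rose 3.66-fold in LBRKO EpiLCs (log2 fold change 1.87 ± 0.26, adjusted p = 3.15e-07) and 2.82-fold in QKO EpiLCs (1.495 ± 0.27, adjusted p = 8.42e-06).

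Because chromosome 6 was raised as a whole in LBRKO cells, *Asz1* was also set against its chromosome. The median of the 1167 chromosome 6 genes was 0.37 in LBRKO EpiLCs and -0.08 in QKO EpiLCs, and *Asz1* lay higher than 98.5% and 94.2% of them. Less these medians, the *Asz1* differences were 1.502 in LBRKO and 1.57 in QKO EpiLCs. A refit that took as an offset, per group, the median deviation of a chromosome's log2 levels from their mean over the 8 groups gave 1.48 and 1.49, and both were called. In LBRKO mES cells the log2 fold change of 0.71 ± 0.28 (adjusted p = 0.0658) became 0.36 in that refit. QKO against TKO mES cells gave 1.38 ± 0.37 for *Asz1* (adjusted p = 0.00605). The differences in passage, 1.17 ± 0.40 in LBRKO (adjusted p = 0.0374) and 1.35 ± 0.44 in TKO cells (adjusted p = 0.0478), were close to the threshold. They were lost in 11 of 24 and in 18 of 24 fits that each left out 1 library.

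*Tex19.1*, the transposon-defence gene, was called in QKO EpiLCs and in no other comparison of a mutant with WT. The QKO EpiLC libraries had 137.1, 159.6, 185.0 and 166.5 CPM, against 35.85 to 79.8 in WT EpiLCs (median 57.3), 76.5, 70.7, 61.2 and 67.3 in LBRKO EpiLCs and a mean of 40.3 ± 1.43 in TKO EpiLCs (SD, n = 4). The QKO EpiLC libraries were the highest of all 40. *Tex19.1* rose 2.84-fold against WT (log2 fold change 1.504 ± 0.14, adjusted p = 8.35e-12) and 4.02-fold against TKO EpiLCs (2.01 ± 0.18, adjusted p = 4.09e-12). The WT EpiLC mean was 38.8 ± 3.78 CPM in replicates 1 to 4 and 75.2 ± 4.12 in replicates 5 to 8 (SD, n = 4 each), so the size depends on the set: 2.06 against the first and 1.11 against the second, called in both.

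In mES cells *Tex19.1* was lower in TKO libraries (53.6, 55.3, 50.15 and 57.6 CPM) than in any WT library (77.4 to 102.2, median 84.9), at a log2 fold change of -0.70 ± 0.15 (adjusted p = 0.000627) that stayed under 2-fold. Among EpiLCs its LBRKO and TKO differences turned with the WT set, from 0.83 and 0.06 against replicates 1 to 4 to -0.12 and -0.90 against replicates 5 to 8, and were called in neither. The passage ratio, EpiLC over mES, was 0.648 in WT, 0.709 in LBRKO, 0.744 in TKO and 2.32 in QKO cells. The QKO passage differed from that of WT by 1.83 ± 0.21 (adjusted p = 3.78e-09), by 2.30 with WT replicates 1 to 4 and by 1.53 with replicates 5 to 8. *Tex19.1* has a near copy in the genome, *Tex19.2*, which was called in the same direction in QKO EpiLCs (log2 fold change 1.82). Reads that map equally well to both are not in the unique counts. In the table with multi-mapping reads the *Tex19.1* difference was 1.52 and was called.

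*Hormad1*, a gene of the meiotic chromosome axis, followed the QKO EpiLCs as well. The libraries had 82.9, 71.7, 65.7 and 73.2 CPM in QKO EpiLCs, 36.3, 41.5, 34.2 and 47.3 in LBRKO, 17.6, 18.7, 15.7 and 19.0 in TKO, and between 16.3 and 30.8 (median 20.5) in WT EpiLCs. QKO libraries lay above all others, LBRKO libraries above those of WT and TKO, and TKO libraries within the lower part of the WT range or below it. *Hormad1* rose 3.31-fold in QKO EpiLCs (log2 fold change 1.73 ± 0.11, adjusted p = 3.15e-17) and 4.13-fold against TKO EpiLCs (2.05 ± 0.14, adjusted p = 7.28e-16). The LBRKO difference was 1.80-fold (0.85 ± 0.11, adjusted p = 6.90e-08), under 2-fold, at 1.09 and called with WT replicates 1 to 4 and at 0.64 with replicates 5 to 8. The QKO difference was 1.98 and 1.52 against the same sets and was called in both.

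In naive mES cells *Hormad1* lay at 36.2 ± 4.80 CPM in WT (SD, n = 8), 34.0 ± 2.29 in QKO, 25.6 ± 2.04 in LBRKO and 25.9 ± 1.17 in TKO cells (SD, n = 4 each). No mutant was called there. The passage ratio, EpiLC over mES, was 0.611 in WT and 0.685 in TKO cells, 1.56 in LBRKO and 2.16 in QKO cells. The LBRKO passage differed from that of WT by 1.34 ± 0.16 (adjusted p = 2.09e-08) and the QKO passage by 1.82 ± 0.16 (adjusted p = 3.07e-12). With WT replicates 1 to 4 these were 1.72 and 2.19, and with replicates 5 to 8 they were 1.001, on the 2-fold limit, and 1.47.

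*Sycp3*, the other axis gene, did not share this pattern. Its EpiLC mean was 3.53 ± 0.848 CPM in WT (SD, n = 8) and 3.29 ± 0.478 in TKO cells, 2.14 ± 0.278 in LBRKO and 1.84 ± 0.406 in QKO cells (SD, n = 4 each). The log2 fold change in QKO EpiLCs was -0.95 ± 0.24 (adjusted p = 0.000792), under 2-fold. With WT replicates 5 to 8 alone it was -1.09 and called.

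*Dazl*, the germ cell RNA-binding gene, differed from WT by less than 2-fold in the LBR mutants, as mES cells, and in QKO EpiLCs. LBRKO mES libraries had 56.4, 63.3, 62.5 and 59.6 CPM and QKO mES libraries 63.55, 62.95, 58.7 and 64.7, all above the highest of the 8 WT libraries (25.5 to 48.7, median 36.0). TKO mES cells had 31.7 ± 1.63 CPM (SD, n = 4). The log2 fold changes were 0.72 ± 0.11 in LBRKO (adjusted p = 4.21e-06) and 0.77 ± 0.12 in QKO mES cells (adjusted p = 5.24e-07). Against WT replicates 5 to 8 alone both were called, at 1.06 and 1.10, and against replicates 1 to 4 they were 0.45 and 0.50.

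In EpiLCs *Dazl* was at 30.5, 30.9, 32.6 and 31.4 CPM in QKO libraries, above all libraries of WT (13.2 to 18.8, median 16.3), LBRKO (15.8, 17.3, 16.0 and 15.8) and TKO EpiLCs (11.65, 17.0, 15.9 and 17.4). The log2 fold change against WT was 0.95 ± 0.12 (adjusted p = 7.07e-09), under 2-fold. It was past 2-fold and called with WT replicates 1 to 4 alone (1.098) and in a fit of these groups only (1.04), and was 0.81 with WT replicates 5 to 8. Against TKO EpiLCs it was 1.01 ± 0.14 (adjusted p = 2.04e-07) and was called. That call was lost without TKO EpiLC replicate 1 (0.90) or QKO EpiLC replicate 3 (0.99).

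*Ddx4*, the helicase gene, was not called in the EpiLCs of any mutant. Its EpiLC level was 42.2 ± 4.65 CPM in WT (SD, n = 8), 39.3 ± 2.72 in QKO, 36.7 ± 1.96 in TKO and 27.3 ± 4.30 in LBRKO cells (SD, n = 4 each). The LBRKO libraries (24.96 to 33.7 CPM) all lay below those of WT EpiLCs (35.8 to 49.0). That difference was -0.63 ± 0.12 on the log2 scale (adjusted p = 8.12e-05), under 2-fold. In naive mES cells the QKO libraries, at 2.18 to 3.18 CPM, lay below all WT libraries (3.95 to 8.20, median 5.25). That difference, -0.998 ± 0.15 (adjusted p = 6.17e-07), was just short of 2-fold. It was called without the filter on low counts (-1.08), with multi-mapping reads (-1.07), with chromosome offsets (-1.1) and with WT replicates 5 to 8 alone (-1.21). It was also called, at -1.02 to -1.07, when WT mES replicate 2, 3, 4 or 7 or QKO mES replicate 2 or 4 was left out.

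Comparing QKO with TKO cells asks what mutating *Lbr* does where lamins are absent. In EpiLCs 4 of the 10 genes were higher in QKO, *Hormad1*, *Tex19.1*, *Morc1* and *Dazl* (15.3% of all genes called; medians 0.81 and -0.01). In mES cells 2 were higher, *Tdrd1* and *Asz1* (6.21% of all genes; medians 0.38 and 0.02), both of them low transcripts there. A further test asked whether the QKO difference from WT exceeded the sum of the LBRKO and TKO differences on the log2 scale. In EpiLCs it did so for *Tex19.1* (1.74 ± 0.23, adjusted p = 2.16e-07), *Hormad1* (1.20 ± 0.17, adjusted p = 9.72e-07) and *Dazl* (1.02 ± 0.19, adjusted p = 6.28e-05), while *Asz1* fell short of the sum by 1.12 ± 0.41 (-1.12, adjusted p = 0.0435). Among all genes 8.05% were called in this test, and the medians were 0.39 and 0.00.

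For *Morc1* the same test gave -0.03 ± 0.09, so that the QKO value was close to the LBRKO and TKO values added. Against WT replicates 1 to 4 alone only *Tex19.1* kept its call, at 1.18, with *Hormad1* at 0.96 and *Dazl* at 0.87. The shortfall of *Asz1* was lost in 15 of 20 fits that each left out 1 library, and also in the refit with chromosome offsets (-0.81), chromosome 6 as a whole having a median of -0.35 in this test. In mES cells 1 gene was called, *Tdrd1* (2.01 ± 0.50, adjusted p = 0.00561; 7.50% of all genes; medians 0.24 and 0.02), which rests on the 8 reads of the TKO libraries.

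A second readout came from reads that mapped uniquely to transposon copies lying inside introns, which the gene table does not count. Summed over the copies in a gene's introns, they describe RNA from within the gene's span. Transcripts of the gene and of the transposon copies themselves cannot be told apart by these reads. The study reports that many transposon families are raised in QKO cells. Of the 10 genes 8 had such copies, and 6 had enough reads to be among the 13786 genes tested. *Tex19.1* has no intronic copy, the copies in *Sycp3* introns were not summed because the gene overlaps *Chpt1* and only copies within a single gene's span were used, and *Asz1* and *Dazl* had too few reads (20 for *Asz1* in the WT EpiLC libraries together). Intronic reads were a larger share of the library in QKO cells, at 6.92% ± 1.02 of gene counts in mES cells and 8.31% ± 0.315 in EpiLCs (SD, n = 4 each), than in WT cells, at 3.70% ± 0.888 and 4.27% ± 0.853 (SD, n = 8 each). Over all genes tested, the median intronic log2 fold change against WT was accordingly 0.81 in QKO mES cells and 0.80 in QKO EpiLCs. Called QKO values are given with their distance from this median.

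On passage in WT cells the intronic reads followed the exonic ones: *Tdrd1* rose by 6.004 ± 0.57, *Mael* by 5.68 ± 0.56, *Ddx4* by 3.52 ± 0.26 and *Piwil2* by 1.93 ± 0.22 on the log2 scale, and *Morc1* had -2.89 ± 0.14 and fell (29.4% of the intronic sums called). The 8 WT mES libraries together held only 1 intronic read of *Tdrd1* and 3 of *Mael*. The sizes of these 2 rises are therefore uncertain. In QKO EpiLCs intronic *Hormad1* reads were at 17.7 to 22.4 CPM in the 4 libraries against a mean of 1.57 ± 0.270 in WT EpiLCs (SD, n = 8). That is a log2 fold change of 3.70 ± 0.19 (adjusted p = 6.68e-22), which is 2.90 above the median of all genes and larger than the exonic 1.73. *Morc1* introns were at 33.7 ± 0.398 CPM against 6.33 ± 1.12 (2.41 ± 0.16, adjusted p = 4.68e-18, 1.604 above the median), and *Piwil2* introns at 3.77 ± 0.279 against 1.04 ± 0.339 (1.85 ± 0.21, 1.05 above). *Mael* and *Ddx4* were also called in QKO EpiLCs, at 1.10 ± 0.37 and 1.02 ± 0.23, but lay only 0.30 and 0.21 above the median (35.8% of intronic sums called).

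In QKO mES cells the introns of *Piwil2* (1.97 ± 0.26) and *Hormad1* (1.21 ± 0.19) were called higher, 1.16 and 0.40 above the median, with 34.5% of intronic sums called. The intronic share of the LBRKO EpiLC libraries lay within the range of WT EpiLCs except in replicate 3, which had 8.16%. In LBRKO EpiLCs 2.47% of sums were called, among them *Morc1* (1.65 ± 0.16, adjusted p = 7.60e-11) and *Hormad1* (1.20 ± 0.20, adjusted p = 2.97e-05). *Tdrd1* introns were at -1.22 ± 0.42 (adjusted p = 0.0822) and those of *Piwil2*, *Mael* and *Ddx4* were not called either. *Hormad1* had 2.86, 2.81, 5.72 and 3.07 CPM in the LBRKO EpiLC libraries, and without replicate 3 its difference was 0.89 and not called.

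**Figure D4:**
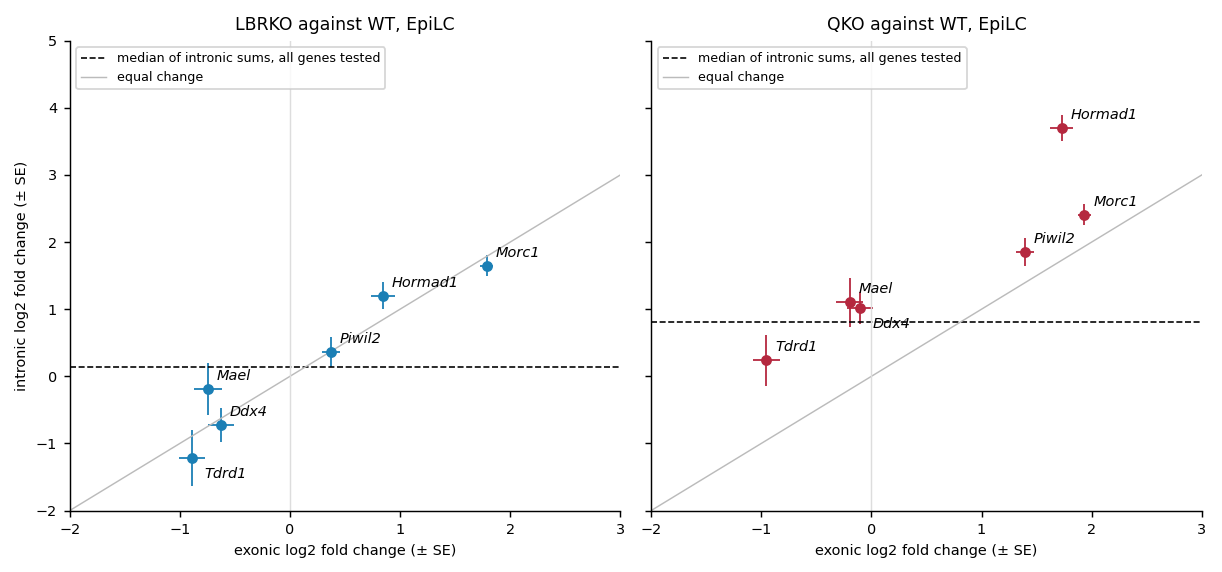
Intronic against exonic log2 fold change (± SE) for the 6 genes with enough intronic reads, in LBRKO and QKO EpiLCs against WT; the dashed line is the median intronic change of all genes. *Hormad1* in QKO EpiLCs lies highest, at 3.70 intronic against 1.73 exonic, and *Tdrd1* lies below the line at 0.24.

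The 2 intronic transposon copies with the most reads in these genes both lay in introns of *Morc1*, on the strand opposite to the gene. A PB1D9 copy (chr16:48432176-48432242) took 8377 reads over the 40 libraries and a B3 copy (chr16:48420516-48420712) took 5948. The PB1D9 copy had 11.1 ± 1.597 CPM in WT mES cells, 0.981 ± 0.115 in WT EpiLCs (SD, n = 8 each), 3.49 ± 0.190 in LBRKO EpiLCs, 0.642 ± 0.168 in TKO EpiLCs and 2.84 ± 0.428 in QKO EpiLCs (SD, n = 4 each). Like the exons, it had higher means in LBRKO and QKO EpiLCs than in WT and TKO EpiLCs.

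Other genes of the same pathways gave a mixed picture. Of 22 other piRNA pathway genes tested, 8 rose and 4 fell on passage in WT cells, and 6 rose and 2 fell in QKO EpiLCs, with a median of 0.32 beside -0.01 for all genes. Of all genes, 31.1% were called on passage and 21.2% in QKO EpiLCs. *Dnmt3l*, the cofactor of the germline DNA methyltransferases, rose from 145.5 to 612.6 ± 49.9 CPM in QKO EpiLCs (2.07 ± 0.10). The study named it as higher in these libraries. *Gtsf1*, a partner of PIWI proteins, rose from 2.28 to 9.37 CPM (2.05 ± 0.17) and *Fkbp6* from 15.1 to 50.8 (1.75 ± 0.08), while the Tudor-domain gene *Tdrd5* fell from 15.7 to 2.43 (-2.69 ± 0.20). As with *Tdrd1* and *Mael*, *Tdrd5* was among the genes that rose on passage in WT cells, from 1.45 to 15.7 CPM. In QKO mES cells 1 gene of this list, *Dnmt3l*, rose and 3 fell, close to the 17.2% of all genes called, and in LBRKO EpiLCs 2 rose and 1 fell, beside 5.67% of all genes.

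Of 28 other meiotic genes tested, 12 rose and 5 fell on passage, and 7 rose and 3 fell in QKO EpiLCs (median 0.33), beside 31.1% and 21.2% of all genes called. *Smc1b*, a meiotic cohesin subunit, rose from 2.13 to 14.95 CPM in QKO EpiLCs (2.83 ± 0.27) and *Rec114*, needed for meiotic DNA breaks, from 1.66 to 7.08 (2.08 ± 0.16). The cohesin subunit gene *Rec8* fell from 16.2 to 5.08 CPM (-1.67 ± 0.10). *Stra8*, the retinoic acid-induced gene of meiotic entry, fell on passage in WT cells (log2 fold change -3.94) and fell in QKO mES cells (-3.66), where 5 genes of the list rose and 6 fell, beside 17.2% of all genes. Of 12 other germline genes, 6 rose in QKO EpiLCs (median 0.98; 21.2% of all genes called), among them *Tex14*, needed for the bridges between germ cells, from 10.4 to 45.0 CPM (2.11 ± 0.11). In LBRKO EpiLCs 1 gene of this list rose and 3 fell, beside 5.67% of all genes.

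**Figure D5:**
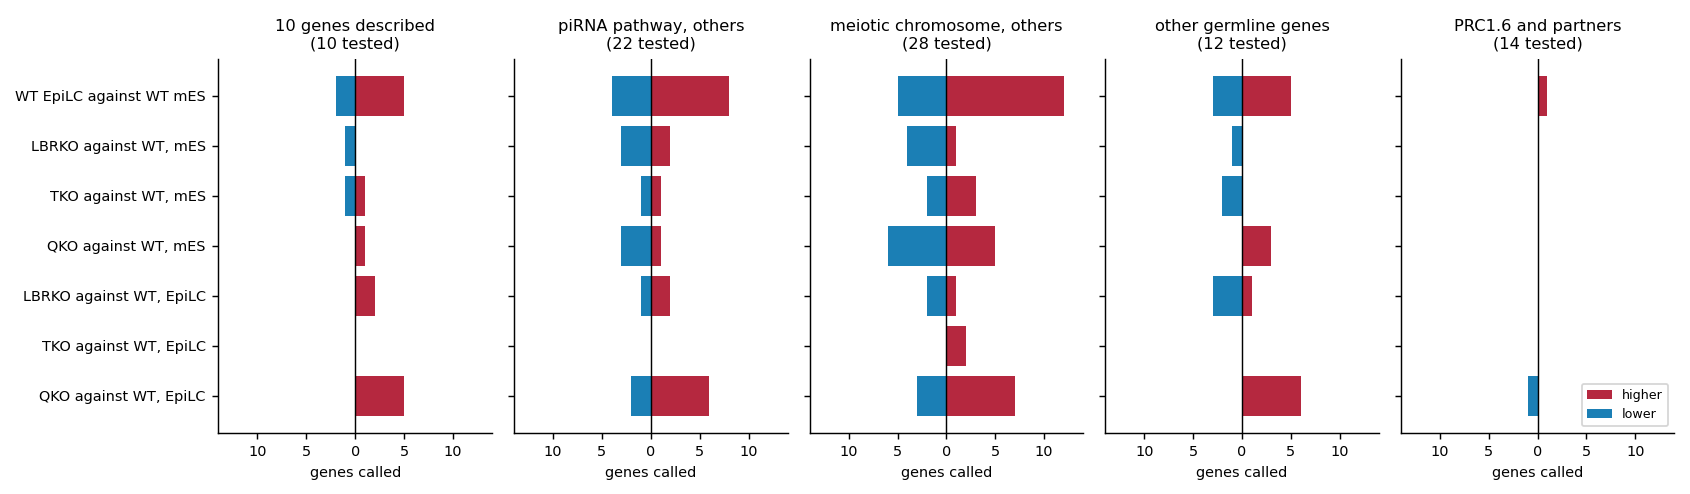
Number of genes called higher and lower in each gene list, for the WT passage and the 6 comparisons of a mutant with WT. In QKO EpiLCs 6 of 22 other piRNA pathway genes, 7 of 28 other meiotic genes and 6 of 12 other germline genes are called higher.

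The RNA of the PRC1.6 complex itself moved little. Of 14 genes for its subunits and partners tested, *Yaf2* was the 1 called on passage in WT cells, where it rose from 5.06 to 17.4 CPM (log2 fold change 1.78), and the 1 called in QKO EpiLCs, where it fell to 7.85 CPM (-1.15). The median over the list was -0.22 in QKO EpiLCs.

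Markers of the cell types that could carry these transcripts were read in the same libraries, and their part in the results was not tested. The 6 naive genes summed to 105.7 to 174.0 CPM in WT EpiLCs, 197.4 to 297.0 in LBRKO EpiLCs and 146.4 to 173.3 in QKO EpiLCs. This is far below the WT mES level, yet in QKO EpiLCs *Esrrb* (1.5), *Zfp42* (1.26) and *Tbx3* (1.07) rose while *Nanog* fell (-1.40), and in LBRKO EpiLCs 2 of the 6 rose. The 5 epiblast-like genes summed to 3161 to 3854 CPM in WT EpiLCs, and the sum was lower in LBRKO (2530 to 2866) and in QKO EpiLCs (2220 to 2332). Yet 0 of the 5 were called in either, and their median log2 fold change was -0.75 in LBRKO and 0.14 in QKO EpiLCs. The 8 primordial germ cell genes summed to 25.4 to 39.1 CPM in WT and 25.9 to 28.2 in QKO EpiLCs. Of these, *Dppa3* (1.99) and *Nanos3* (1.14) rose and *Kit* fell (-1.08) in QKO EpiLCs, while *Prdm14* was at 0.0990 CPM in WT and 0.0959 in QKO EpiLCs.

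Markers of somatic cells of the gonad, Sertoli and Leydig cells, summed over 6 genes to 6.78 to 11.1 CPM in WT and 19.9 to 21.2 in QKO EpiLCs. *Star* (6.26 to 17.5 CPM), *Dhh* and *Sox9* rose, while *Amh* (0.905 and 0.723 CPM), *Cyp11a1* (0.211 and 0.171) and *Insl3* (0.0846 and 0.0919) stayed under 1 CPM in both. Of the primitive endoderm genes, *Gata6* (2.96) and *Pdgfra* (2.56) rose and *Dab2* fell (-1.40) in QKO EpiLCs. The 5 genes of that list summed to 13.06 ± 1.10 CPM in WT EpiLCs and 13.04 ± 2.14 in QKO EpiLCs. In WT EpiLCs 3 of the 5 were under 1 CPM. Of the markers of 2-cell-like cells, 5 fell there, from a sum of 8.77 ± 1.39 CPM in WT EpiLCs to 1.66.

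The genes whose pattern was most like that of each member were found by Pearson's r over the 8 group means of 9540 genes, means that share libraries, depth and genotype. *Morc1* was most like *Mt1* (0.992), *Lifr* (0.992) and *Dglucy* (0.989), and *Piwil2* most like *Rrh* (0.985). *Tex19.1* was most like *Ankrd65* (0.976) and *Hormad1* most like *Rtkn* (0.976). *Asz1* was most like *Rbm38* (0.991) and *Dazl* most like *Zscan29* (0.977). *Tdrd1* was most like *Dusp2* (0.998), *Mael* most like *Zic2* (0.998) and *Sycp3* most like *Mcoln3* (0.999). *Ddx4* was most like *Cobll1*, *Mov10l1* and *Aff3* (0.996 each), and *Mov10l1* is itself a piRNA pathway helicase. The means of *Tdrd1*, *Mael*, *Sycp3* and *Ddx4* are set apart mostly by state. Among the 10 genes, r was 0.98 between *Tdrd1* and both *Mael* and *Ddx4* and 0.86 between *Hormad1* and *Tex19.1*.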

How the data were processed

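Mouse ES cells were profiled by stranded, ribosome-depleted total RNA sequencing in 40 libraries. The deposited tables hold raw counts: the authors trimmed reads with cutadapt 2.5, aligned them with STAR 2.7.10a, and counted uniquely mapped reads per gene and per transposon copy with featureCounts 1.6.4; a further table counts multi-mapping reads with TEcount (versions from the submitters' processing notes, which also name SAMtools 1.10). The strand setting of the counting is not given in the sources used here. Coordinates are those of the deposited tables, GRCm39.

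From these counts, 23399 of 56748 genes passed the expression filter of edgeR 4.0.16 (R 4.3.3) over the 8 groups. Libraries were scaled by TMM, and 1 quasi-likelihood model with a mean per group was fitted to all 40, so that all groups share the estimate of spread. A gene was called at a Benjamini-Hochberg adjusted p under 0.05 over all genes tested and a fold change over 2. Standard errors are the log2 fold change divided by the root of F. Levels are CPM with TMM library sizes, as mean ± SD. Contrasts were each mutant against WT, QKO against TKO, the WT passage, differences in passage and the excess of QKO over LBRKO plus TKO. Unique reads over transposon copies lying in 1 gene's span outside exons were summed per gene and fitted likewise. Promoter windows came from the reference genome and GENCODE transcript starts.

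The members and lists were chosen with earlier results of these data known. Genes named are the 10 members, marker genes called, the up to 5 largest called changes of each list, and the 3 genes with the highest r to each member. On simulated counts for QKO against WT EpiLCs (22748 genes, 200 changed), 84.8% of 4-fold and 75.8% of 3-fold changes were called with 3 false calls, and for intronic sums (13339 genes) 88.8% and 78.6% with 1 false call. Alternatives were DESeq2 1.42.0, RLE scaling, no filter, multi-mapping counts, chromosome-centred values, intronic copies at least 100 bases from exons, a replicate block, fits on each comparison's own groups, subsets of WT and LBRKO libraries, and leaving out each library. Libraries with the same replicate number did not deviate together throughout, though some did, so numbers were not taken as pairs. No libraries of a group agreed within sampling noise.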

Additional observations from a re-analysis of the deposited data

Results flagged for a closer look

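A library was set apart where the gap to its nearest neighbour took an unusually large part of its group's range (Dixon's 95% criterion), over 80 sets of a gene in a group. Chance gives about 1 in 20 such sets, or 4 of 80, and 7 were found. They were *Asz1* in TKO mES replicate 1 (0.165 CPM), *Mael* in TKO mES replicate 4 (1.42 CPM), *Tex19.1* in QKO mES replicate 2 (77.8 CPM), *Dazl* in LBRKO EpiLC replicate 2 (17.3 CPM), *Ddx4* in LBRKO EpiLC replicate 4 (33.7 CPM), and *Sycp3* in TKO EpiLC replicate 2 (4.01 CPM) and in QKO EpiLC replicate 1 (2.45 CPM). No library recurred among them.

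By the test of the difference itself, 8 changes on passage were unlike those of WT. In LBRKO cells these were *Morc1* (log2 difference 1.91), *Hormad1* (1.34) and *Asz1* (1.17). In TKO cells they were *Tdrd1* (1.94) and *Asz1* (1.35), and in QKO cells *Morc1* (1.98), *Tex19.1* (1.83) and *Hormad1* (1.82). The *Tdrd1* and *Asz1* values rest on transcripts near or under 1 CPM in mES cells.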

How the results depend on the processing

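Of 3855 recomputed values for the 10 genes, 3659 kept their direction and their side of the threshold, 84 fell short of a call and 39 gained one. A further 73, over 27 results, took the other sign with no call on either side, and 0 called values changed direction. DESeq2, and likewise RLE scaling, left all 140 exonic values on the same side. The number of genes called moved by more than 1.5 times as follows, and the cause was not tested. For LBRKO mES cells (1) it was 0 with WT replicates 1 to 4, 3 with WT replicates 5 to 8, 2 with LBRKO replicates 1 and 2, and 0 to 1 leaving out 1 library. For QKO mES cells (1) it was 2 without the filter, with multi-mapping reads and with chromosomes centred, 3 with WT replicates 5 to 8, and 1 to 2 leaving out 1 library. For TKO EpiLCs (0) it was 1 with WT replicates 5 to 8. For QKO against TKO mES cells (2) it was 1 on their own groups only. For the TKO passage (2) it was 1 without the filter, with WT replicates 1 to 4, on its own groups only and with chromosomes centred, and 1 to 2 leaving out 1 library. For the QKO passage (3) it was 6 with WT replicates 5 to 8. For QKO beyond LBRKO plus TKO, the mES count (1) was 2 with WT replicates 1 to 4, and the EpiLC count (4) was 2 without the filter, 1 with WT replicates 1 to 4, 2 with LBRKO replicates 1 and 2, and 2 to 4 leaving out 1 library.

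With the replicate number as a block, the LBRKO mES count was 0, since *Mael* was at -0.99, *Tdrd1* was called in QKO EpiLCs (-1.06) and *Asz1* in the EpiLC excess was lost (-0.95). The numbers did not pair the samples throughout: r between same-numbered libraries ran from -0.276 to 0.451 and was over 0.1 in 28 of 116 pairs. A library matched its own number best in 43 of these pairs. No pair of groups had r over 0.1 at every number. Between the replicate 1 libraries of EpiLCs, r ran from 0.186 (LBRKO and QKO) to 0.315 (LBRKO and TKO), so partial sharing remains possible. Intronic *Ddx4* in QKO EpiLCs was lost in 4 fits that left out 1 library (0.91 to 1.00). Depth limits *Asz1* throughout and *Tdrd1*, *Mael* and *Sycp3* in mES cells, where a library held few reads.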
